A study of Mus musculus with 9 samples.

Results

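Open chromatin was described around 8 genes of the mesenchymal transition: the transcription factor genes Snai1, Snai2, Zeb1, Zeb2, Twist1 and Twist2, and the genes Cdh2 and Vim, which mark cells that have passed through it. The genes were chosen by name, with earlier results of these data known, out of 21883 protein-coding genes of the mouse annotation. For each of them every peak that overlapped the gene span or the 100 kb on either side was taken from each of 9 peak lists, and peaks at gene ends were separated from distal ones. After peaks of all lists that overlapped had been merged, 188 of 124230 regions lay in the 8 windows, and no region belonged to 2 of them.

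The peaks came from ATAC-seq, which finds accessible DNA by where the Tn5 transposase can cut it, of 3 cell lines grown from primary mouse osteosarcomas, tumours of bone. The first line carried p53R172H/-, that is 1 allele with the R172H substitution and no second p53 allele; the second carried p53R245W/-, likewise 1 allele with R245W; the third was p53-/-, with neither allele, and is called p53-null here. No line with normal p53 was included, no treatment was named, and the age of the animals was not given in the sources used here. Each genotype was 1 line with 3 libraries, so genotype and line cannot be told apart, and because nothing in the labels tells if they came from separate cultures, p-values measure only the spread between these libraries, which may be technical. In bulk cells, a site open in fewer cells and a site cut less often in every cell cannot be told apart either.

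Epithelial cells that lose their junctions and gain motility do so under a small set of repressors. Snail proteins (Snai1, Snai2) and Zeb proteins (Zeb1, Zeb2) are zinc finger factors that bind E-box sequences in epithelial genes such as Cdh1, and Twist proteins are basic helix-loop-helix factors that bind E-boxes as dimers. Osteoblasts and the tumours of their lineage are mesenchymal from the start, and there Twist proteins are known for restraining Runx2, the main osteoblast factor, while Cdh2 joins osteoblasts to each other and Vim builds their intermediate filaments.

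Start site sequences were available for 5 of the 8 genes (RefSeq, GRCm38.p6). The 250 bases before the outermost start are shown because that stretch lay in a region called in all 9 libraries for each of the 5, written 5′ to 3′ on the gene's strand, with any E-box (CANNTG, the same motif on both strands) in capitals.
Snai1, chr2:167537945-167538194, plus strand: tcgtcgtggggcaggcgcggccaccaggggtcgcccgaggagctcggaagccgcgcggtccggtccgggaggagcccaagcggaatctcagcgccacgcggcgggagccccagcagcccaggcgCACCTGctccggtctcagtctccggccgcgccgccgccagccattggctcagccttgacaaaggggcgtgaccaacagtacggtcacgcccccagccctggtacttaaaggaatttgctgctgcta
Zeb2, chr2:45117443-45117692, minus strand: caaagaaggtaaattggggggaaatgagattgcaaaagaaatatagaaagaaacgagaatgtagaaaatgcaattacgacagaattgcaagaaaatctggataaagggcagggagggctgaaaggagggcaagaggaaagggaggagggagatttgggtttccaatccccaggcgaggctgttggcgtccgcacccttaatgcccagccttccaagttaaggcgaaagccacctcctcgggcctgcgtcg
Twist1, chr12:33957421-33957670, plus strand: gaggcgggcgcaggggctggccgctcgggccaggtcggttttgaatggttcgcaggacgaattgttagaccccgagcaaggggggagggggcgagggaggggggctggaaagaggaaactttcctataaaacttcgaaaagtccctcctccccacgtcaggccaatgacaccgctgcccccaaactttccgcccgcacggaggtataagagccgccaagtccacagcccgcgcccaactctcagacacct
Twist2, chr1:91801211-91801460, plus strand: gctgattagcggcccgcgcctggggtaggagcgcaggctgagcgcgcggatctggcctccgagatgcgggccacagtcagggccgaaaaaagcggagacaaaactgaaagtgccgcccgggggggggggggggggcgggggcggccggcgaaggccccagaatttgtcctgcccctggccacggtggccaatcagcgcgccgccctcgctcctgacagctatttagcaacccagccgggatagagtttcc
Vim, chr2:13574061-13574310, plus strand: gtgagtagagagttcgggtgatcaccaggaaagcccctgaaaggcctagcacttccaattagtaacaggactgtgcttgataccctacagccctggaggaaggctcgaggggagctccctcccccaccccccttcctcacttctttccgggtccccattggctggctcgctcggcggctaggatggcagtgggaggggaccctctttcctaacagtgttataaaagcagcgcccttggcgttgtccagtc
Snai1 held the only E-box of these 5 stretches, CACCTG at position -126 from the start site, which is CAGGTG, the type that Snail and Zeb proteins bind, on the other strand. Of 32851 promoters in the same table, 66.2% held CANNTG in their 250 upstream bases and 17.2% held CAGGTG on either strand. A match is a description of letters, and its absence says nothing about binding. The stretch of Snai1 was 70.0% G and C with 27 CpG dinucleotides and that of Twist2 68.8% with 23, against medians of 52.4% and 6 over all promoters. Twist1 had 62.4% and 18, Vim 58.4% and 8, and Zeb2 49.6% and 9.

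All 8 genes had an end open in every library, where an end was open if a peak lay within 1000 bp of it; 55% of all protein-coding genes met that. Of the 16 gene ends, 9 were open in all 9 libraries, 4 in none and 3 in some. The region at the start of Snai1 ranked high, from the 90.1 to the 97.4 percentile of -log10 q within its library. That at the lower end of Snai2 ranked from 85.0 to 94.2. Twist1 lay between 83.3 and 96.2, Twist2 between 87.5 and 94.8, Vim between 84.7 and 94.2, and Cdh2 between 83.8 and 88.6. Lower ranks were found at the upper end of Snai1, from 66.6 to 90.8, and at the Zeb genes. There Zeb1 ranked from 67.2 to 82.2 and the outermost start of Zeb2 from 26.4 to 60.7. The regions at these ends were wider than the median of 1191 bp over the 36473 regions called in all 9 libraries. The broadest had 3144 bp at Cdh2, 2699 bp at Zeb1, 2609 bp at Twist2, 2438 bp at Vim and 2423 bp at Twist1. Snai2 had 1758 bp, the lower and upper ends of Snai1 1756 and 1639 bp, and Zeb2 1409 bp, wider than 67.5% of those regions.

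The defining markers of the labelled cell type were open in part. Of 6 osteoblast lineage genes, Runx2, Sp7, Alpl and Col1a1 had an end open in all 9 libraries, whereas Ibsp and Bglap, genes of mature bone matrix, had none open in any. An end was open in every library of R172H, R245W and p53-null for 2, 3 and 1 of 5 epithelial markers, 3, 2 and 2 of 5 blood markers, and 1, 1 and 1 of 4 endothelial markers. Of the epithelial markers 1 (Krt8) was open throughout and Cdh1 in no library, of the blood markers 2 (Cd79a and Cd68) with Ptprc at 0, and of the endothelial markers 1 (Kdr) with Pecam1, Cdh5 and Tek at 0. Krt19 was open in all R172H and R245W libraries and in no p53-null library, and Epcam in 3 R245W, 2 p53-null and 0 R172H libraries. Either end of a gene counted here, and 55% of all protein-coding genes had an end open in all 9 libraries. Whether cells of other types were present, or had a part in the results below, was not tested.

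The lists differed in length: 72840 to 74352 peaks in the R172H libraries, 75314 to 79424 in the R245W libraries and 65199 to 65942 in the p53-null libraries, with read depth unknown. In the 8 windows together there were 112 ± 8.14 peaks per R172H library, 111 ± 4.62 per R245W library and 107 ± 4.04 per p53-null library (SD, n = 3). Windows were compared by an exact permutation test that takes every one of the 280 ways to form 3 groups of 3 libraries, one-sided for a larger spread between lines, with Benjamini-Hochberg adjustment over all 21883 genes and a threshold of 0.05. The smallest p is 0.00357, and a gene in which 1 line stands apart from 2 that overlap need not reach it. Between a pair of lines the exact two-sided p cannot go below 0.1, so pairs are described by whether their libraries overlap.

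Zeb1, Twist2 and Cdh2 passed, 3 of 8 genes, in a background of 22.4% of all genes. In distal peaks alone Zeb1 and Cdh2 passed, 2 of 8, against 14.8% of all genes. The line with most peaks was a different one in each: p53-null for Zeb1, R245W for Twist2 and R172H for Cdh2. The median difference over the 8 genes was 0.167 peaks for R172H minus p53-null and 1.83 for R245W minus p53-null, beside 0.333 and 1 over all genes. Counts did not overlap between all R172H and all p53-null libraries in 1 gene that was higher in R172H (Cdh2, background 29.8%) and 1 that was lower (Twist2, background 16.3%). R245W libraries were all above p53-null in 3 genes (Zeb2, Cdh2 and Vim, background 37%) and all below in 1 (Zeb1, background 6.65%). R172H libraries were all above R245W in 2 genes (Zeb1 and Cdh2, background 15.1%) and all below in 2 (Twist2 and Vim, background 29.1%).

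**Figure D1:**
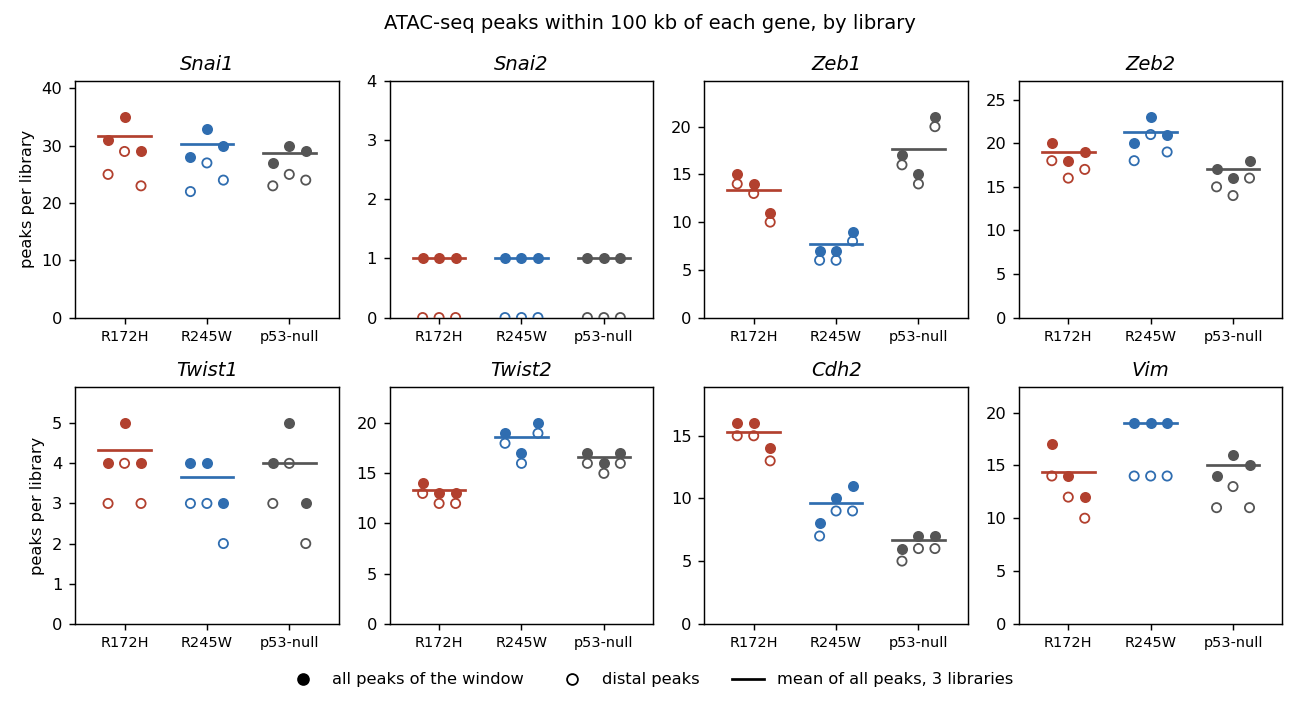
Peaks per library within 100 kb of each gene, with lines on the x axis and the number of peaks on the y axis, which starts at 0; filled points are all peaks, open points distal peaks, and bars the mean of 3 libraries. Cdh2 falls from R172H to p53-null without overlap, Zeb1 is lowest in R245W, Twist2 is lowest in R172H, and Snai2 has 1 peak in every library.

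Snai1, the Snail factor that starts the transition in embryos and tumours, lay on chromosome 2 (chr2:167538195-167542814) in one of the most peak-rich windows, with a mean of 30.2 peaks per library, more than in 98.6% of genes. The R172H libraries had 31, 35 and 29 peaks, the R245W libraries 28, 33 and 30, and the p53-null libraries 27, 30 and 29. These ranges overlapped in every pair (adjusted p = 0.487, exact permutation test). Of its 45 regions 16 were called in all libraries (35.6%, background 29.4%). In the p53-null line only, 2 distal regions above the gene were called (4.44%, background 2.74%). These were chr2:167571792-167572444, 29.0 kb from the span, at percentiles from 64.1 to 69 in that line, and chr2:167588840-167589772, 46.0 kb away, from 70.5 to 73.2. The latter lies nearer to Ube2v1, and another region beside it, chr2:167590376-167590994, was called in all R245W and p53-null libraries and in no R172H library. At chr2:167475721-167476935, 61.3 kb below Snai1 and at the end of another gene with Slc9a8 nearest, both mutant lines were called and p53-null was not. There the R172H percentiles ranged from 79.4 to 82.7 and the R245W ones from 2.97 to 28.5.

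Snai2, the second Snail factor and a gene of neural crest and osteoblast precursors (chr16:14705852-14709395), was the opposite in peak number. Each of the 9 libraries had 1 peak in the window, at the lower end of the gene (chr16:14704887-14706644), and none was distal. The nearest other peak of any library was 212 kb below and 110.0 kb above the span. Over all genes 0.416% had exactly 1 peak in all 9 libraries, 12.2% had at most 1, and the median window held 11.6.

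Zeb1, an E-box repressor of Cdh1 (chr18:5591327-5775468), had fewest peaks in the R245W line. The R172H libraries had 15, 14 and 11 peaks, the R245W libraries 7, 7 and 9, and the p53-null libraries 17, 15 and 21. The R245W libraries lay below all others, while the R172H and p53-null libraries met at 15 (adjusted p = 0.0434, exact permutation test). The difference was in distal peaks, at 12.3 ± 2.08, 6.67 ± 1.15 and 16.7 ± 3.06 (SD, n = 3; adjusted p = 0.0483, exact test), since the region at the lower gene end was called in all 9. Within the gene there were 5 ± 0 distal peaks per R172H library, 3 ± 0 per R245W library and 7.67 ± 1.53 per p53-null library. Of the 25 regions of Zeb1, 5 were called in the p53-null line and in no R245W library (background 4.03% of all regions). None was called the other way round (background 10%). The strongest region that R172H had and R245W lacked, chr18:5842017-5842757, 66.5 kb above the gene, was also called in p53-null. The call on all peaks was lost with 7 of the 9 single libraries left out (every one except R172H 1 and p53-null 2), with adjusted p up to 0.0659, and with a 50 kb window (0.0688).

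Chromosome 18, which holds both Zeb1 and Cdh2, itself differed between the lines. It had 2008 ± 55.7 peaks per R245W library, against 2339 ± 37.3 in R172H and 2282 ± 30.1 in p53-null (SD, n = 3), although the R245W lists were the longest. The median window on this chromosome had 1 peak fewer in R245W than in p53-null (-1), and elsewhere 1 more. Of 510 genes on the chromosome, 32.7% had R245W counts wholly below p53-null, against 6.03% of the other genes. Zeb1, with a mean difference of -10.0, was still at the edge of its own chromosome, where 1.37% of genes had a difference as low. For Cdh2, 8.67 more peaks in R172H than in p53-null was reached by 1.96% of genes on the chromosome, and 3 more in R245W by 12.4%. R172H counts lay wholly above R245W in 27.1% of genes on the chromosome, against 14.8% of the other genes. The mean difference of 5.67 between these lines, alike for Zeb1 and Cdh2, was reached by 9.02% of genes on the chromosome. The part of the chromosome in the results of either gene was not tested.

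Zeb2, the second Zeb factor, which also shapes neural crest cells (chr2:44983512-45117442, minus strand), had most peaks in R245W. The R172H libraries had 20, 18 and 19 peaks, the R245W libraries 20, 23 and 21, and the p53-null libraries 17, 16 and 18. Only the R245W and p53-null libraries stood clear of each other, and the gene missed the threshold (adjusted p = 0.0517, exact permutation test). Inside the gene the distal peaks numbered 4.33 ± 0.577 in R172H, 8.67 ± 0.577 in R245W and 6.33 ± 0.577 in p53-null (SD, n = 3), whereas in the flanks the order was R172H 12.7 ± 0.577, R245W 10.7 ± 1.15 and p53-null 8.67 ± 0.577. Distal here means away from the outer ends of the span, so these counts hold peaks at 3 inner start sites of Zeb2; without them there were 3 ± 1, 6.67 ± 0.577 and 4.33 ± 0.577 in the gene. Of the 35 regions of Zeb2, R172H had 6 that p53-null lacked (background 14.5% of all regions). In R172H only, 5 were called (background 9.83%), the strongest being chr2:45046589-45047274 inside the gene.

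Zeb2 also differed in which of its start sites was open. The annotation gives 4 start sites, and the outermost, at 45117442, and the innermost, at 45110277, lay in regions called in all 9 libraries (chr2:45116312-45117720 and chr2:45109237-45110693). The pair between them, at 45113279 and 45113253, lay in a region (chr2:45112889-45113874) called in 3 of 3 R245W and 3 of 3 p53-null libraries and in 1 of 3 R172H libraries. The innermost site had a stronger peak than the outermost in every line, with percentiles from 63.7 in p53-null to 80.6 in R172H.

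**Figure D2:**
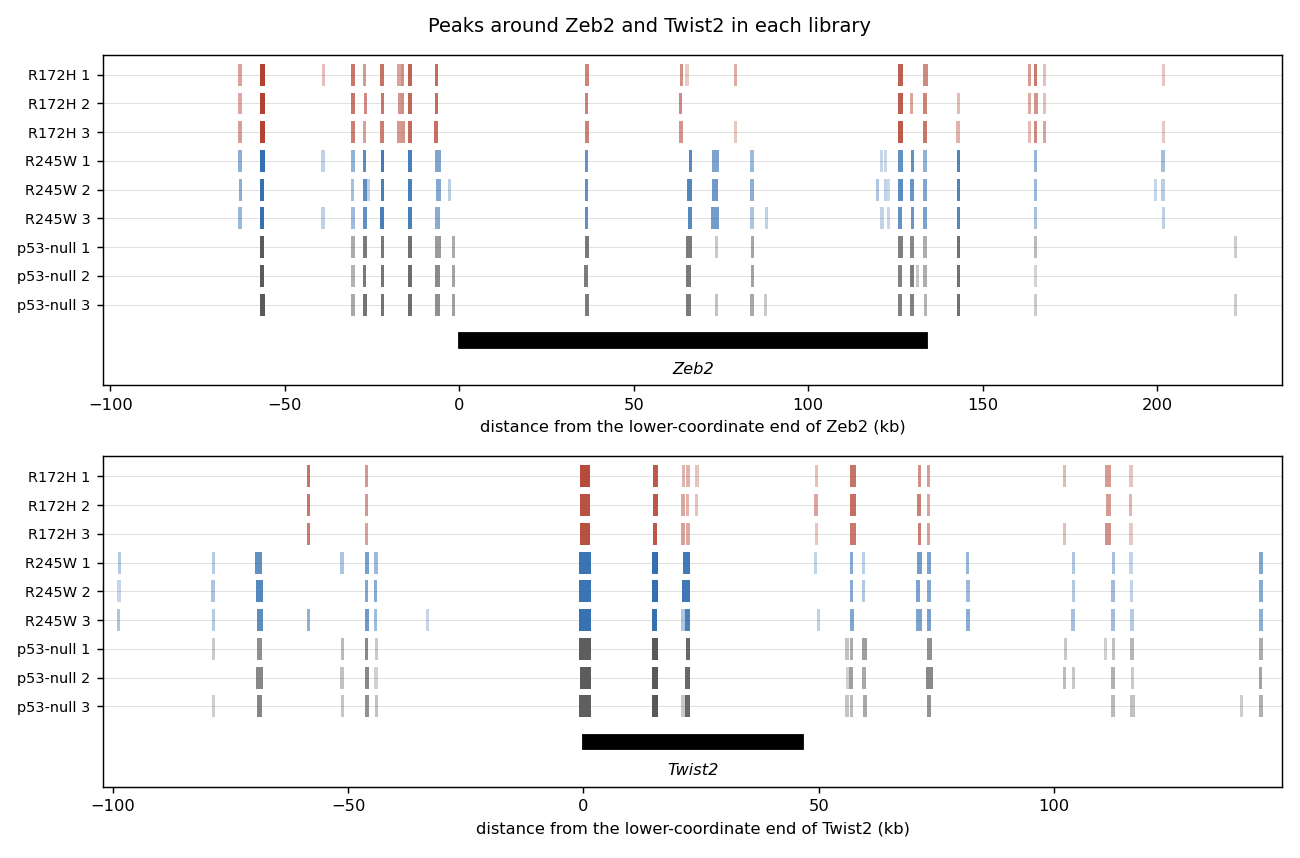
Peaks of each library (rows) around Zeb2 and Twist2, with the distance in kb from the lower end of the gene on the x axis; bars are peaks, drawn at least wide enough to be seen and darker for a higher percentile of -log10 q within the library, and the black bar is the gene. In Zeb2, R172H has 2 neighbouring regions just below the gene that the other lines lack, and in Twist2 the R245W and p53-null libraries share regions below the gene that R172H lacks.

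Twist1, a mesoderm and skull factor (chr12:33957671-33959831), had few peaks. There were 4, 5 and 4 in the R172H libraries, 4, 4 and 3 in R245W and 4, 5 and 3 in p53-null. The counts overlapped in every pair (adjusted p = 0.994, exact permutation test). The base pairs they covered differed: 4.05 ± 0.141 kb in R172H, 5.61 ± 0.268 kb in R245W and 4.85 ± 0.362 kb in p53-null (SD, n = 3; adjusted p = 0.0110, exact permutation test). By that measure Zeb1, Zeb2, Twist1, Twist2 and Cdh2 passed, 5 of 8 genes, but so did 73.6% of all genes, and the call of Twist2 was lost with lists of equal length (adjusted p = 0.0506, exact permutation test). Twist2 and Cdh2 kept the order of their peak counts. At Zeb1 the covered kb were 9.92 ± 1.11 in R172H, 8.62 ± 0.285 in R245W and 14.4 ± 0.353 in p53-null. Here both mutant lines lay below p53-null and overlapped each other. At Zeb2 they were 12.8 ± 0.0536, 17.4 ± 0.975 and 13.9 ± 0.354, so R172H lay below p53-null, unlike its peak counts. Of the 7 regions of Twist1, 2 were called in all libraries (28.6%, background 29.4%). They were the one over the gene and chr12:34039610-34041518, 79.8 kb above it and nearer to Hdac9.

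Twist2, the second Twist factor, known for holding back osteoblast maturation (chr1:91801461-91848034), had fewest peaks in R172H. The R172H libraries had 14, 13 and 13 peaks, the R245W libraries 19, 17 and 20, and the p53-null libraries 17, 16 and 17. R172H lay below both other lines, which overlapped at 17 (adjusted p = 0.0477, exact permutation test). The peaks missing from R172H were in the flanks, with 8.67 ± 0.577 distal peaks there against 15.3 ± 1.15 in R245W and 13.3 ± 0.577 in p53-null (SD, n = 3), while within the gene R172H had 3.67 ± 0.577 against 2.33 ± 0.577 in each of the others. Part of that excess was 1 region, chr1:91822445-91824174, which was split into 2 peaks in each R172H library and held 1 peak in R245W 1 and 2 and p53-null 1 and 2; its strength, given below, was lowest in R172H. Of the 26 regions of Twist2, 8 were called in R245W and in no R172H library (background 13.8% of all regions). For p53-null the number was 7 (background 10.3%). The strongest, chr1:91731755-91733336, 68.1 kb below the gene, was shared by R245W and p53-null. The call was lost when the lists were shortened to equal length (0.0528), with 50 kb (0.266) or 200 kb (0.101) windows, and without any 1 library other than R245W 2 (up to 0.0581).

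Cdh2, N-cadherin, the adhesion molecule that replaces E-cadherin (chr18:16588877-16809246), was the only one of the 8 genes in which no pair of lines overlapped. The R172H libraries had 16, 16 and 14 peaks, the R245W libraries 8, 10 and 11, and the p53-null libraries 6, 7 and 7. The order was R172H above R245W above p53-null, and no other partition spread the libraries more (p = 0.00357, the smallest possible, adjusted p = 0.0300, exact permutation test; 11.9% of all genes had that p). Distal peaks showed it alike, at 14.3 ± 1.15, 8.33 ± 1.15 and 5.67 ± 0.577 (SD, n = 3; adjusted p = 0.0332, exact test). R172H had 10.3 ± 1.15 of them inside the gene, against 5 ± 0 in R245W and 4.67 ± 0.577 in p53-null. The call was lost without any 1 of the p53-null libraries (adjusted p from 0.0502 to 0.0513) and with a 50 kb window (0.0688).

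The regions behind the Cdh2 counts were mainly regions called in R172H. Part of the R172H excess over R245W was 1 split region inside the gene, 115 kb from its lower end. Each R172H library had 2 peaks there, at percentiles from 8.99 to 33.1. Each R245W library had 1 wider peak, from 71.9 to 79.8, and of the p53-null libraries only p53-null 3 had a peak (15.1). Of the 21 regions of Cdh2, R172H had 7 that no p53-null library had (background 14.5% of all regions). Among them 2 were also called in all R245W libraries (background 3.04% of all regions) and 4 in R172H only (background 9.83%). The p53-null line had 1 that R172H lacked (background 10.3%), chr18:16734503-16735158 inside the gene. The stronger of the 2 shared regions in R172H, chr18:16713071-16714353 inside the gene, ranked from 75.6 to 79.8 in R172H and from 76.3 to 78.3 in R245W. The other, chr18:16888814-16889790, 79.6 kb above the gene, ranked from 74.9 to 77.5 in R245W and from 32.1 to 45.8 in R172H. Around Cdh2 the strongest region that R172H had and R245W lacked was chr18:16547378-16548320, 40.6 kb below the gene. The open upper end of the gene (chr18:16806724-16809867) was called in all 9 libraries.

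**Figure D3:**
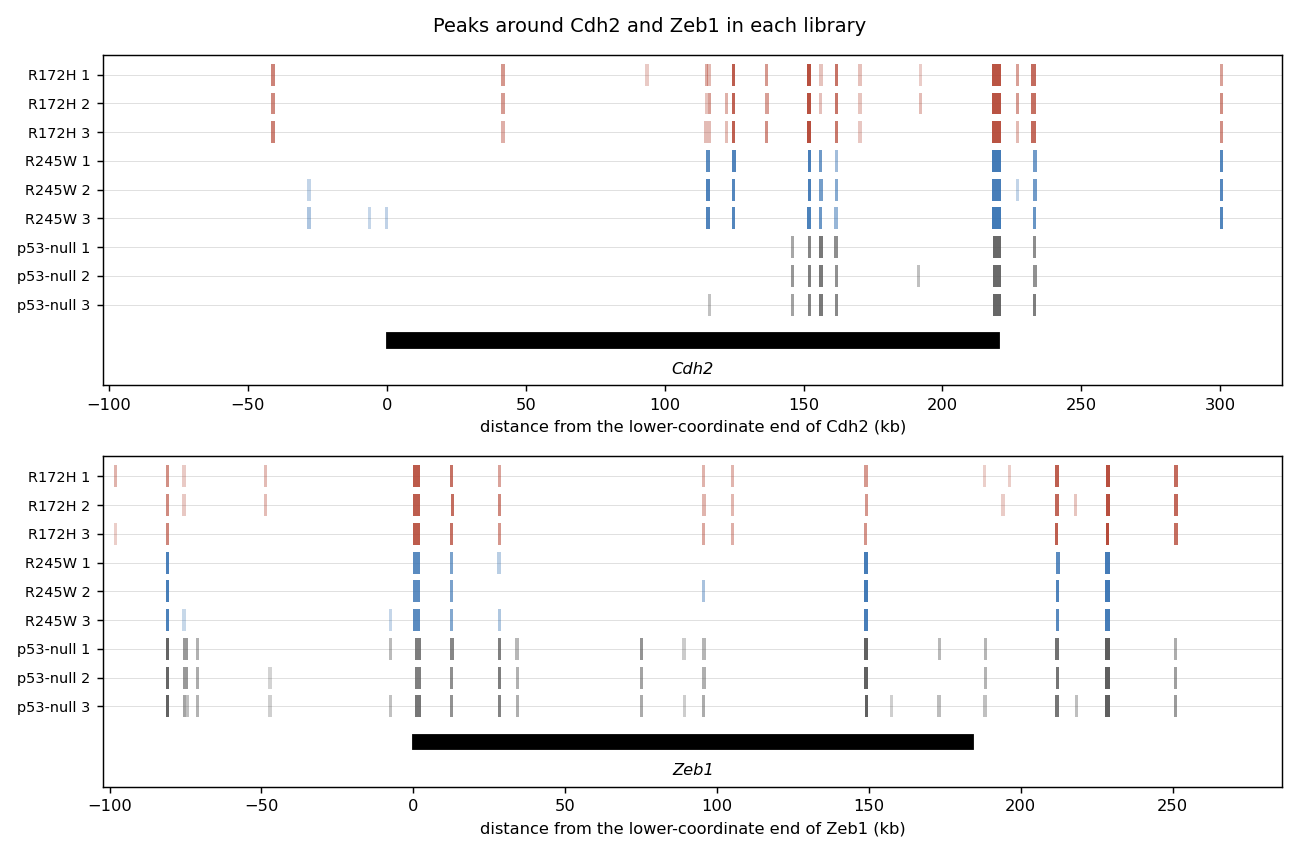
Peaks of each library (rows) around Cdh2 and Zeb1, with the distance in kb from the lower end of the gene on the x axis; bars are peaks, drawn at least wide enough to be seen and darker for a higher percentile of -log10 q within the library, and the black bar is the gene. Cdh2 carries most peaks in R172H, with a strong region near 125 kb in both mutant lines and none there in p53-null, and Zeb1 has the sparsest rows in R245W.

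Vim, which encodes vimentin (chr2:13574311-13582826), had 17, 14 and 12 peaks in the R172H libraries, 19 in each R245W library, and 14, 16 and 15 in the p53-null libraries. R245W lay above both other lines, which overlapped (adjusted p = 0.0783, exact permutation test). Part of the R245W peaks were at the gene's own ends, with 3.33 ± 0.577 per library against 2 ± 0 in p53-null and 1.33 ± 0.577 in R172H (SD, n = 3). The lower end, its start, was open in all 9 libraries, and the upper end in 3 R245W, 3 p53-null and 1 R172H library. The region just above that end, chr2:13583100-13584086, ranked from 57.6 to 67.4 in R245W and from 39.0 to 39.6 in p53-null, and was called in no R172H library.

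Call patterns in the 8 windows are given beside those of all regions. Of the 188 regions 53 (28.2%) were called in all 9 libraries, against 29.4% of all regions, and 60 were called in all libraries of 1 line and none of another in at least 1 pair (31.9%, background 35.7%). R172H had 23 regions that p53-null lacked (12.2%, background 14.5%), and p53-null had 23 that R172H lacked (12.2%, background 10.3%). R245W had 10 that p53-null lacked (5.32%, background 10%) and lacked 11 that p53-null had (5.85%, background 4.03%). Between the mutant lines 17 were called in R172H and not in R245W (9.04%, background 11.5%) and 18 the other way round (9.57%, background 13.8%). Of the 60 regions 2 lay at a member's own end, both at the upper end of Vim. By pattern over all 3 lines, 14 of the 188 regions were called in R172H only (7.45%, background 9.83%), 3 in R245W only (1.60%, background 5.79%) and 9 in p53-null only (4.79%, background 2.74%). The mutant lines alone shared 5 (2.66%, background 3.04%), R172H and p53-null 1 (0.532%, background 0.858%) and R245W and p53-null 10 (5.32%, background 6.21%), while 93 were called in 1 or 2 of 3 libraries of some line (49.5%, background 42.2%).

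**Figure D4:**
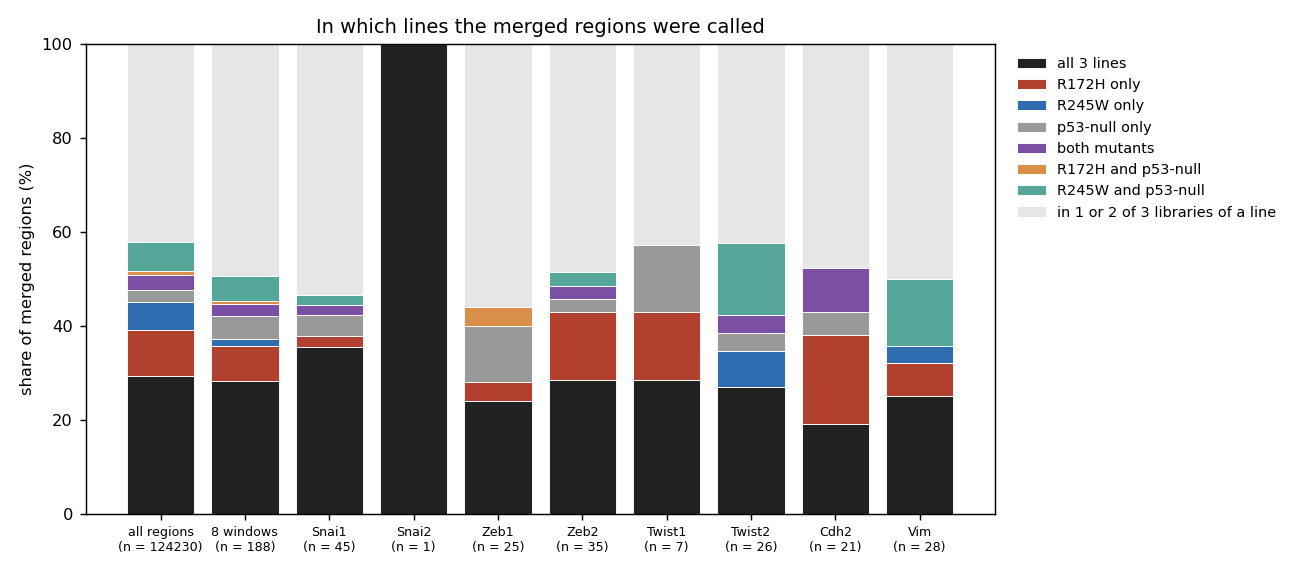
Share of merged regions, in percent, by the lines in which all 3 libraries were called and the other lines had none, for all regions, the 8 windows together and each gene; regions called in 1 or 2 of 3 libraries of some line are light grey, and n is the number of regions. Regions called in all 3 lines make up 28.2% of the 8 windows and 29.4% of all regions, Cdh2 and Zeb2 have the most regions called in R172H only (4 and 5), and Twist2 and Vim have 4 each called in R245W and p53-null.

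The strength of a shared region was compared as its rank by -log10 q among the 36473 regions called in all 9 libraries, a measure added after the data were seen. Of the 9 such regions at the genes' own ends 7 passed the exact permutation test after adjustment over all 36473, and of all 53 in the windows 42 did, in a background of 74.6%. The lower-end region of Snai1 ranked 93.8 ± 1.60 in R172H, 88.8 ± 3.29 in R245W and 84.4 ± 1.55 in p53-null (SD, n = 3), whereas the region just above its upper end ranked 46.1 ± 1.5, 51.5 ± 2.13 and 82.8 ± 1.29. The Snai1 gene had its strongest start in R172H and its strongest other end in p53-null, without overlap between those 2 lines in either region. Zeb1 was strongest in R172H, at 64.7 ± 2.44 against 47.7 ± 1.83 and 51.9 ± 4.64, and so was the Vim start, at 86.1 ± 2.12 against 71.3 ± 1.43 and 75.3 ± 2.33. Snai2 ranked 82.9 ± 0.521, 86.4 ± 1.53 and 79.9 ± 5, with overlap between R172H and p53-null; ranked by the fold over background, R172H was highest, with means of 78.5, 61.8 and 60.7, and the call was lost (adjusted p = 0.0548, exact permutation test). The outermost Zeb2 start stayed low in each line, at 29.1 ± 7.44, 17.0 ± 6.15 and 10.4 ± 1.57. Twist1 ranked 79.4 ± 3.54, 70.6 ± 4.29 and 92.2 ± 1.41, but when regions were ranked by the fold over background the p53-null line was no longer highest, with mean ranks of 60.6, 42.3 and 42.2 in the same order. Cdh2, whose distal counts differed in every pair, had an end region that ranked 74.8 ± 0.520, 73.1 ± 4.87 and 73.6 ± 1.71 (adjusted p = 0.875, exact permutation test), and Twist2 missed the threshold (adjusted p = 0.0644, same test; 0.0292 without R172H 1). The call was lost at the lower end of Snai1 without any R172H library or p53-null 2 (adjusted p up to 0.0643), at Zeb1 without R172H 1 (0.0606), at Zeb2 without R172H 2 or 3, R245W 2 or any p53-null library (up to 0.0768), and at Snai2 without any R172H or R245W library or p53-null 3 (up to 0.212).

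**Figure D5:**
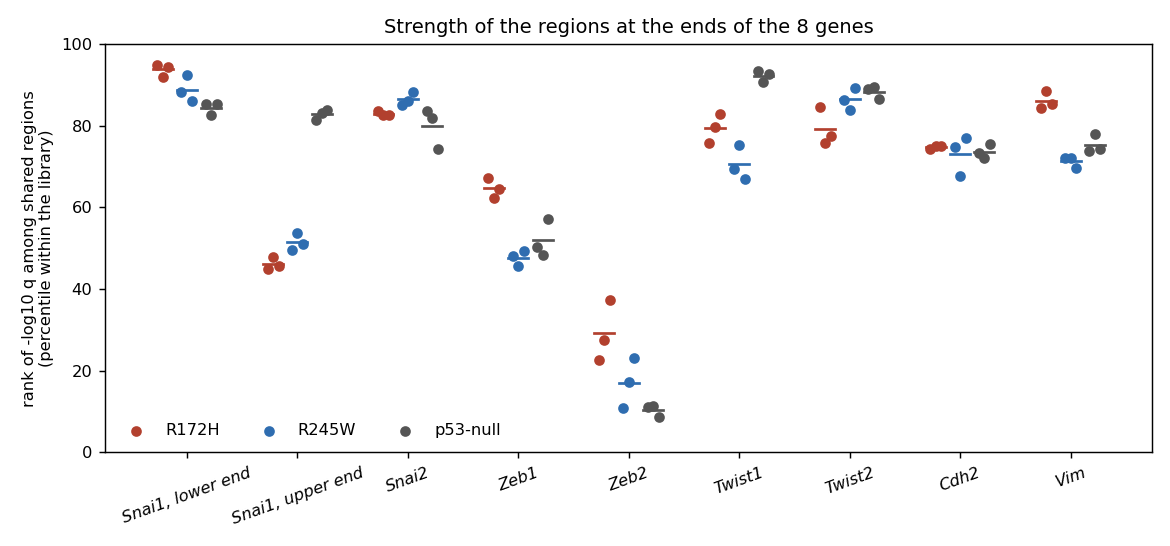
Rank, as a percentile within the library, of -log10 q of the regions at the ends of the 8 genes among regions called in all 9 libraries; each point is a library, coloured by line, and short bars are means of 3. The lower end of Snai1 is highest in R172H and its upper end highest in p53-null, Zeb2 is low in all lines, and the Cdh2 points overlap.

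Some distal regions that every library shared differed by more between lines. The region chr1:91822445-91824174 inside Twist2 ranked 7.03 ± 3.09 in R172H, 74.1 ± 4.83 in R245W and 73.8 ± 1.23 in p53-null (SD, n = 3; adjusted p = 0.0479, exact permutation test). Inside Zeb1, chr18:5739752-5740961 ranked 15.5 ± 1.32, 70.8 ± 2.33 and 83.8 ± 0.329 (adjusted p = 0.0105, exact test), weakest in the line whose Zeb1 end ranked highest. Below Snai1, chr2:167485193-167486623, nearer to Spata2, ranked 49.2 ± 2.74, 83.6 ± 0.980 and 95.3 ± 1.24 (adjusted p = 0.0105, exact test). Inside Cdh2 the order was the other way, with chr18:16740470-16741227 at 79.5 ± 1.79, 64.6 ± 1.85 and 44.1 ± 2.87 (adjusted p = 0.0105, exact test). These regions were picked as examples after their values were seen, and 74.6% of shared regions passed the same test.

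Related genes were counted on lists. Of 16 E-box factors, partners and other transition factors 7 passed the test on window counts, beside 22.4% of all genes, and all 16 had an end open in every library. R172H had the fewest peaks at Tcf4, a dimer partner of Twist proteins, with 13.7 ± 0.577 against 27.3 ± 1.53 in R245W and 31.7 ± 1.15 in p53-null (SD, n = 3), at Id2, an inhibitor of such dimers, with 11.3 ± 1.15 against 14 ± 0 and 16.3 ± 0.577, and at Prrx1, a limb mesenchyme factor, with 17.3 ± 0.577 against 26 ± 1.73 and 21 ± 2. Id4, another inhibitor, ran the other way, at 9.67 ± 0.577, 6.67 ± 0.577 and 4 ± 0. The median difference on this list was -1.17 for R172H minus p53-null and -2.17 for R172H minus R245W, beside 0.333 and -0.333 over all genes. Tcf4, like Smad2 below, lies on chromosome 18.

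Of 16 epithelial genes that these factors repress or that oppose them, 4 passed (25%, close to the 22.4% of all genes): Dsp, a desmosome protein, and Grhl2 and Ocln were highest in R245W, and Krt19 was highest in R172H at 17 ± 0 peaks against 7.67 ± 0.577 and 5.33 ± 0.577 (SD, n = 3). An end was open in every library for 7 of the 16, against 55% of all genes. Of 12 mesenchymal genes 3 passed, also 25%, and Cdh11, osteoblast cadherin, followed the order of Cdh2, with 13.7 ± 1.15 peaks in R172H, 6.33 ± 0.577 in R245W and 2.67 ± 0.577 in p53-null. Tagln, an actin-binding protein, had 18.7 ± 0.577, 15.3 ± 0.577 and 13.7 ± 0.577, and Des was highest in R245W. Of 8 TGF-beta genes, whose signal induces the transition, Smad2 and Smad3 passed, again 25%, with Smad2 highest in p53-null (11.7 ± 0.577) and Smad3 in R245W (33.7 ± 2.08).

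The genes whose window counts were most like those of a member, by the smallest sum of absolute differences over the 9 libraries, were Fam89b for Snai1 (11 peaks), Tmc3 for Zeb1 (15), Kazald1 and Tmem132a for Zeb2 (5 each) and Olfr748 for Twist1 (3). For Twist2 it was 2010003K11Rik (5), for Cdh2 Eva1a and Rhobtb1 among 3 tied (7), and for Vim Capns1 and Dcpp1 among 5 tied (6). Snai2 shared its 1 peak in every library exactly with 89 genes elsewhere, among them 2310034C09Rik and 2310057J18Rik.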

How the data were processed

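ATAC-seq peak lists of 9 libraries, 3 per line, were analysed as deposited. Per the submitters' processing notes, Bowtie 1.1.2, MACS2 2.1.0, Trimmomatic 0.33, deepTools and bcl2fastq 2.17 were used, with build GRCm38; for settings, filters and any Tn5 shift the entry is "not given in the sources used here". In the deposited lists each peak has the authors' score, fold ratio over local background, -log10 p and -log10 q. These were taken to order and select peaks inside 1 list, where the smallest -log10 q was 1.3, a q of 0.05. For regions called in all 9 libraries, the ranks within each library by -log10 q or by fold were then compared between lines. Lists were per library, so replicates were not pooled.

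Peaks were counted where they overlapped a window by 1 bp; distal peaks lay more than 1000 bp from both ends of every protein-coding gene (RefSeq, GRCm38.p6, which gives spans without exons). Overlapping peaks of all lists were merged into regions. The test was checked on simulated data. The members and lists were chosen with earlier results of these data known. Named regions were those at the genes' ends and, per pair and direction, up to 3 with the highest lowest percentile; on each list up to 4 genes with the smallest p were named. The covered base pairs, ranks among shared regions and their examples, the Zeb2 start site and chromosome 18 comparisons were added after the data were seen. Replicate numbers did not pair libraries. Software was pandas 2.3.3, numpy 2.4.6, scipy 1.17.1, matplotlib 3.10.9, Python 3.11.15.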

Additional observations from a re-analysis of the deposited data

How the results depend on the processing

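With other settings, counted genes were those past the threshold out of 8 (3 for all peaks, 2 for distal peaks). For all peaks the number was 0 with a window of 50 kb, 5 by covered base pairs, and 0 to 2 with 1 library left out; for distal peaks it was 0 to 2 with 1 left out. The distal call of Zeb1 was lost without any 1 library other than p53-null 2 (adjusted p up to 0.0706) and that of Cdh2 without any p53-null library (up to 0.0566). Covered base pairs gave 5 to 7 genes with 1 library left out. Regions called in 1 line and not in another numbered 39 with windows of 50 kb and 98 with 200 kb (60 in the report), and 61 to 67 with 1 library left out. Of the 16 gene ends, 8 to 10 were open in all libraries with other end distances. Own-end ranks that passed numbered 4 to 6 of 9 with 1 library left out. Ranked by fold over background, Twist1 lost its call (adjusted p = 0.0581, exact permutation test) and p53-null was no longer the highest line there. The cause was not tested. With the replicate block, which allows 36 partitions and no p below 0.0278, 0 genes passed for all peaks, 0 for distal peaks and 0 own-end ranks, as did 0% of all genes, so this fit could not pass any gene; the correlation of same-numbered libraries ran from -0.00800 to 0.0149 over 9 pairs. Depth is unknown, so a region that was not called may lie below the threshold of its list.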
